A study of Mus musculus with 20 samples.

Results

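MHC class II presentation was followed through 8 mouse genes, matched by symbol in both deposited gene tables: H2-Aa, H2-Ab1, H2-Eb1, H2-DMa, H2-DMb1, Cd74, Ciita and Ctss. All 8 were found, among 54325 gene rows per table, and all 8 had an adjusted p in both tables. The livers came from C57BL/6 mice in 4 groups, with 5 samples per group in the labels. The MCD anti-ACBP group ate a methionine and choline deficient (MCD) diet and was given anti-ACBP, an antibody that binds the acyl-CoA binding protein encoded by Dbi. The MCD IgG group ate the same diet and received a control IgG, and the labels give the disease state of both MCD groups as NASH, a fatty liver with inflammation. The chow anti-ACBP and chow IgG groups ate regular chow, received the same antibodies, and are labelled healthy. The labels give no age, sex, dose or time.

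MHC class II molecules are pairs of an alpha and a beta chain that carry peptides from ingested material to the cell surface, where CD4+ T cells read them. In the cell, new pairs are held by the invariant chain, which Cd74 encodes. Cathepsin S, the Ctss product, trims that chain, and the DM pair then exchanges its last fragment for a peptide. The chains, Cd74 and the DM genes share a promoter arrangement at which the coactivator CIITA is recruited by RFX, CREB and NF-Y factors. Dendritic cells, B cells and macrophages hold most class II in a healthy liver, and Kupffer cells are its resident macrophages.

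Each value below is a group mean of normalized counts or of CPM, which is scaled to a column total of 1000000. No spread over libraries stands beside a group mean, so the error of each comparison is the standard error (SE) of its log2 fold change, which is always anti-ACBP over IgG. Fold changes and SEs are those of the authors' deposited tables, made with DESeq2. Adjusted p-values under 0.001 were recomputed here from both, since the deposited ones are rounded. A gene was called at a Benjamini-Hochberg adjusted p under 0.05 over the whole table. The 4 group columns summed to between 34621779 and 39398190 normalized counts. Steps made by single reads showed 5 libraries per group behind the MCD means and 4 behind the chow means, while the labels list 5.

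On the MCD diet all 8 class II genes fell with anti-ACBP, to levels below those of MCD IgG livers by 2.05-fold to 4.96-fold. Of all 20265 genes tested there, 30.9% were called, 16.2% lower and 14.7% higher. A share of 7.45% were called lower by at least 1 on the log2 scale, as all 8 members were. The median log2 fold change of the 8 genes was -1.49, beside a median of 0.02 over all genes tested. On chow none of the 8 genes was called, and the difference between diets passed its test for all 8. The share of genes called lower depends on the scale: relative to column totals all MCD fold changes shift by -0.19 and the calls become 5468 lower and 1398 higher, against 3288 lower and 2973 higher on the authors' scale. The 8 genes stayed called lower on that scale, at -2.50 to -1.22. In whole liver tissue, fewer cells of a type and less RNA per cell cannot be told apart.

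**Figure D1:**
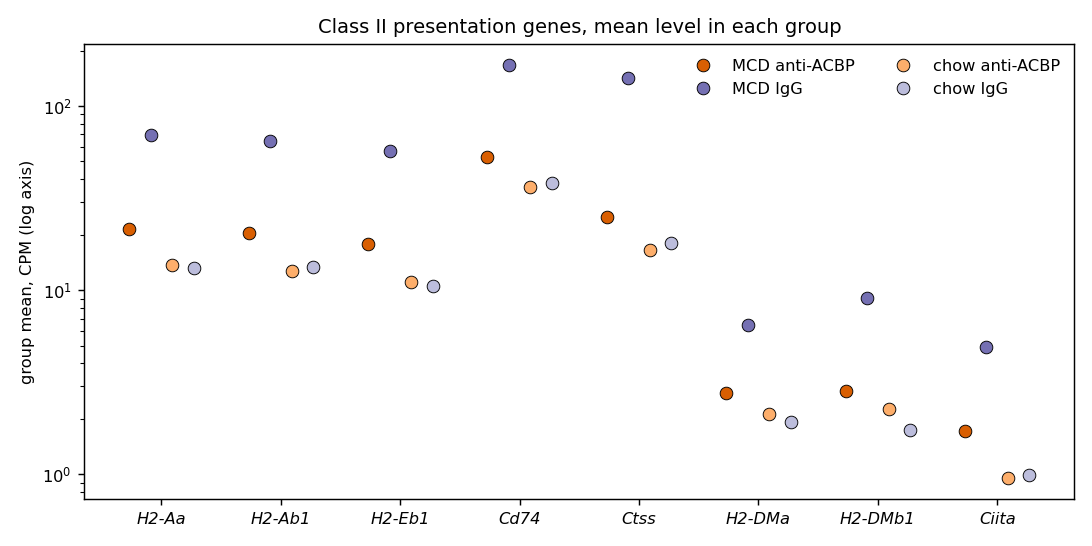
Mean level of each class II gene in the 4 groups, as CPM on a log axis, computed from the deposited group means (5 libraries per group on MCD, 4 on chow, no error bars because the tables give means only). MCD IgG livers stand above the other 3 groups for all 8 genes, and MCD anti-ACBP livers come next for all 8; levels of different genes are not scaled by length here.

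The classical chains fell together. H2-Aa, the alpha chain of I-A, had a mean of 849.51 normalized counts in MCD anti-ACBP livers, against 2394.86 in MCD IgG livers. H2-Ab1, its beta chain, had 802.10 in MCD anti-ACBP livers, against 2227.05 in MCD IgG livers. H2-Eb1, the beta chain of I-E, had 697.24 in MCD anti-ACBP livers, against 1966.01 in MCD IgG livers. The 3 chains, counted in the same libraries, were thus lower by nearly the same factor. In the authors' deposited table the log2 fold change was -1.50 ± 0.114 (SE) for H2-Aa, with an adjusted p of 8.41e-37. It was -1.47 ± 0.129 for H2-Ab1 (adjusted p 6.79e-28) and -1.50 ± 0.119 for H2-Eb1 (adjusted p 7.27e-34). Between 4.97% and 5.11% of tested genes had a lower fold change than these chains. C57BL/6 mice carry a haplotype that makes no I-E alpha chain, and the row H2-Ea-ps was listed at 0, 0.19, 0 and 0 normalized counts in MCD anti-ACBP, MCD IgG, chow anti-ACBP and chow IgG livers.

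Promoter letters shared by several class II genes are printed for H2-Aa, H2-Eb1, H2-DMb1, H2-DMb2 and H2-Ob. The windows come from the RefSeq table (build GRCm38.p6, 250 bases before to 50 after the start). Capitals mark AAC, found in the X box that RFX binds, and TGATTGG, the core of the Y box that NF-Y binds. Each line runs 5′ to 3′ on the gene's own strand, with 25 bases before and 20 after the pair.
H2-Aa, chr17:34287847-34287927, minus strand: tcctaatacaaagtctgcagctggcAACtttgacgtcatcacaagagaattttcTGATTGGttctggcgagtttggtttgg
H2-Eb1, chr17:34305753-34305832, plus strand: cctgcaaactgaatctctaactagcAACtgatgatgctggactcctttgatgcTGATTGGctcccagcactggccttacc
H2-DMb1, chr17:34153074-34153154, plus strand: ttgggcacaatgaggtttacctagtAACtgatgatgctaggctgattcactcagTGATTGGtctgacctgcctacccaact
H2-DMb2, chr17:34145103-34145183, plus strand: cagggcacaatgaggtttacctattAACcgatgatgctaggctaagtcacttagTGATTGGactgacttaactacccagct
H2-Ob, chr17:34238795-34238872, plus strand: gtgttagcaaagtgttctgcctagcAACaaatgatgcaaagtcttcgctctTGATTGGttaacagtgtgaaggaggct

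The distance between the first letters of the pair was 29 bases in H2-Aa, H2-DMb1 and H2-DMb2, 28 in H2-Eb1 and 26 in H2-Ob. In H2-Aa the AAC began 79 bases before the start of the gene, in H2-Eb1 89 bases before it, and in H2-DMb1 92 bases before it. H2-Eb2 and H2-Oa hold the pair too, 28 and 29 bases apart. Of 32851 windows, 0.189% held AAC followed by TGATTGG at 26 to 29 bases on the gene's strand, and 0.460% held it on either strand. TGATTGG alone was in 7.82% of windows on either strand. These letters and distances were chosen after the class II windows had been read, so the shares describe the motif and are no test. The pair was in none of the 2 windows of H2-DMa and not in the window of Ctss. H2-Ab1, Cd74 and Ciita have no window in the table. Members with and without the pair in this window were called on MCD, and of the other chains that hold it, H2-Eb2 and H2-DMb2 were called and H2-Oa and H2-Ob were not.

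Cd74, the invariant chain that chaperones new class II pairs, had 2067.89 normalized counts in MCD anti-ACBP livers, against 5802.02 in MCD IgG livers. Its log2 fold change was -1.49 ± 0.108 in the authors' deposited table (adjusted p 2.92e-40), close to that of the chains it holds. Ctss had 987.75 normalized counts in MCD anti-ACBP livers, against 4905.01 in MCD IgG livers. With a log2 fold change of -2.31 ± 0.153 (adjusted p 2.22e-48 from the authors' deposited values), Ctss had the lowest fold change of the 8. Its 95% interval, from -2.61 to -2.01, overlapped that of 0 of the other 7 genes, while each of those overlapped 6 of its 7 companions. Fold changes of different genes were not tested against each other. Of all genes tested, 1.63% had a lower fold change than Ctss and 5.02% a lower one than Cd74. The Ctss promoter window carries GAAANNGAAA, letters of the kind that interferon regulatory factors bind, 21 bases before the start, in capitals here. On either strand 3.44% of windows hold these letters, and none of the windows of H2-Aa, H2-Eb1, H2-DMa and H2-DMb1 does. Their part in the fold change of Ctss was not tested.
Ctss, chr3:95526740-95526794, plus strand: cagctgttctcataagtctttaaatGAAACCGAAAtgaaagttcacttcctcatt

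The DM pair, which loads peptides and never reaches the T cell itself, was lower in both chains. H2-DMb1 had 111.39 normalized counts in MCD anti-ACBP livers, against 312.28 in MCD IgG livers, and a log2 fold change of -1.50 ± 0.146 (adjusted p 1.26e-22). H2-DMa had 109.43 in MCD anti-ACBP livers, against 224.32 in MCD IgG livers, and a log2 fold change of -1.03 ± 0.173 (adjusted p 4.18e-08 from the authors' deposited values). H2-DMa thus had the smallest change of the 8 genes, and 9.45% of tested genes had a lower one. Both values carry a limit of counting. In GENCODE M21, 360 exon bases of H2-DMa (10.4%) lie opposite exons of Brd2, a gene with 6254.55 normalized counts in MCD anti-ACBP livers and 5142.60 in MCD IgG livers. The libraries are strand-specific per the labels, and the strand setting of the counting is not given in the sources used here. H2-DMb1 and H2-DMb2 are near copies: 369 of the 1355 stretches of 50 bases in the first H2-DMb1 transcript (27.2%) also occur in H2-DMb2, so reads between them may be split uncertainly.

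Ciita, the coactivator whose level sets class II transcription in most cells, was the least abundant member per kilobase. It had 67.73 normalized counts in MCD anti-ACBP livers, against 169.65 in MCD IgG livers. The log2 fold change was -1.33 ± 0.187 in the authors' deposited table (adjusted p 3.85e-11). Ciita therefore fell with its target genes, by a factor of 2.51. Its exons share 329 bases (3.45%) with Dexi on the other strand, and Dexi was higher with anti-ACBP on MCD, at a log2 fold change of 0.41 in the authors' deposited table.

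**Figure D2:**
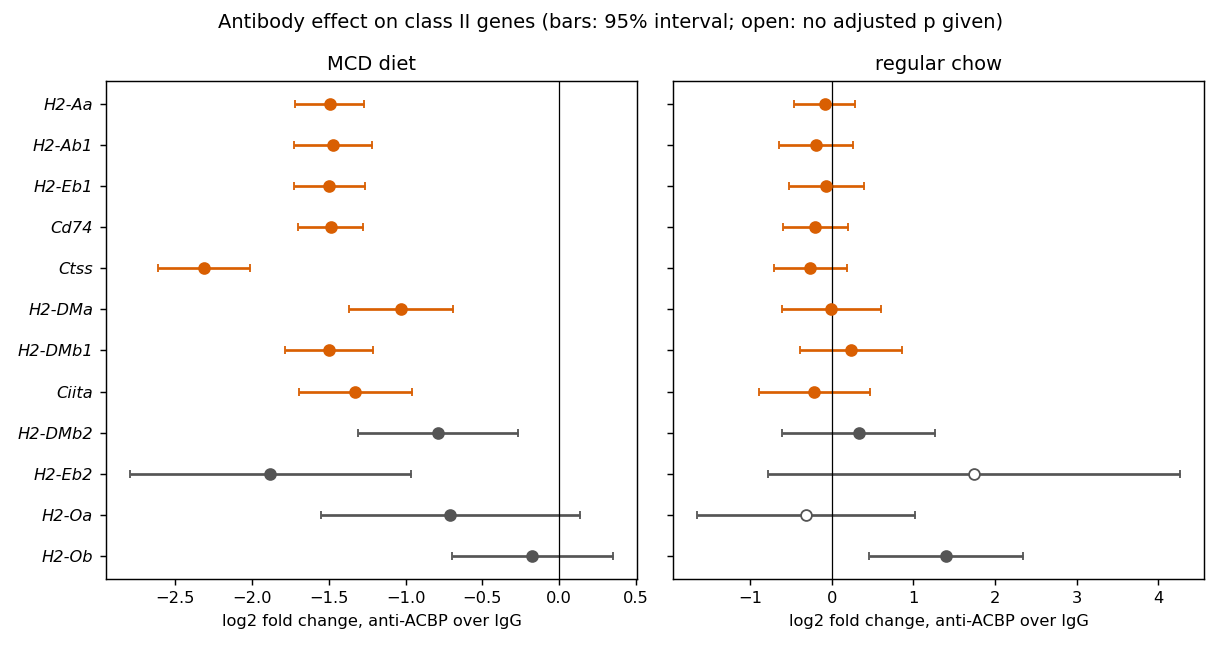
Log2 fold change of each class II gene, anti-ACBP over IgG, on the MCD diet and on chow, with 95% intervals from the deposited SEs (members in orange, other class II chains in grey, open circles for genes without an adjusted p). On MCD all 8 members lie between -2.31 and -1.03 with intervals below 0, and on chow all 8 intervals hold 0; the axes of the 2 panels differ.

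On chow no member was called. H2-Aa had 482.35 normalized counts in chow anti-ACBP livers, against 511.25 in chow IgG livers. H2-Ab1 had 447.52 in chow anti-ACBP livers, against 512.74 in chow IgG livers, and H2-Eb1 had 388.06 in chow anti-ACBP livers, against 406.05 in chow IgG livers. These chain levels lay close together under both antibodies. Cd74 had 1278.89 in chow anti-ACBP livers, against 1469.78 in chow IgG livers, and Ctss had 575.76 in chow anti-ACBP livers, against 692.60 in chow IgG livers. H2-DMa had 74.24 in chow anti-ACBP livers, against 74.48 in chow IgG livers, and H2-DMb1 had 79.13 in chow anti-ACBP livers, against 66.80 in chow IgG livers. Ciita had 33.37 normalized counts in chow anti-ACBP livers, against 38.27 in chow IgG livers, its lowest means of the 4 groups. In the authors' deposited table the log2 fold changes ran from -0.27 ± 0.228 for Ctss (adjusted p 0.523) to 0.24 ± 0.318 for H2-DMb1 (adjusted p 0.715), and the adjusted p of H2-DMa was 0.995. DESeq2 called 0 of 8 at an adjusted p, and 0 of 8 had an unadjusted p under 0.05, where 12.0% of 14618 tested genes were called in either direction, 6.46% lower and 5.58% higher.

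The chow intervals leave room for change. The 95% intervals together ran from -0.90, the low end for Ciita, to 0.86, the high end for H2-DMb1. A fall as large as those on MCD therefore lies outside each of them. Each interval holds some smaller shifts in either direction, within its own ends. That of Cd74 ran from -0.60 to 0.19, and that of H2-Aa from -0.46 to 0.29. The SEs on chow, 0.191 to 0.349, were larger than those on MCD, 0.108 to 0.187. Of the 8 fold changes 7 were negative on the authors' scale, by values of -0.27 to -0.01; relative to column totals, which shift all chow fold changes by 0.14, those of H2-Aa, H2-Eb1 and H2-DMa turned positive.

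The antibody effect differed between diets for all 8 genes, by a test that set the deposited log2 fold change on MCD against that on chow (MCD minus chow). Of 14607 genes tested in both tables, 23.2% passed in either direction and 10.6% were more negative on MCD. Ctss differed most, by -2.05 ± 0.275 (adjusted p 1.08e-11), and H2-DMb1 came next at -1.73 ± 0.350 (adjusted p 1.72e-05). H2-Eb1, H2-Aa, Cd74 and H2-Ab1 lay close together, at -1.43 ± 0.263, -1.41 ± 0.222, -1.29 ± 0.229 and -1.28 ± 0.263, with adjusted p-values of 1.70e-06, 1.17e-08, 6.76e-07 and 2.72e-05 in that order. Ciita, at -1.11 ± 0.396 (adjusted p 0.0256), and H2-DMa, at -1.03 ± 0.354 (adjusted p 0.0211), passed by less. The median difference of the 8 genes was -1.35, beside a median of 0.02 over all genes tested in both tables. Fold changes and SEs here come from 2 separate fits that share no library.

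The diets themselves were compared as levels with no test, because the tables were scaled separately. The log2 ratio of CPM, MCD over chow, had its median subtracted, taken over the 8857 genes whose CPM reached 5 in all 4 groups. That median was 0.13 under anti-ACBP and 0.39 under IgG. Under IgG the centred ratio was at least 1 for 8 of the 8 genes, where 12.4% of genes reached it. Its median over the members was 1.95, beside 0.07 over all genes. Under anti-ACBP 0 of 8 reached 1, where 2.98% of genes did, and the members' median was 0.50, beside 0.03 over all genes. In level, all 8 were above chow on the MCD diet under both antibodies, with the lower ratio under anti-ACBP.

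Ctss had the widest span. Its level in MCD livers was 1.40-fold that of chow livers under anti-ACBP and 6.01-fold under IgG. The I-A and I-E chains lay between 1.44-fold and 1.46-fold under anti-ACBP, and between 3.69-fold and 4.11-fold under IgG. Cd74 was at 1.32-fold under anti-ACBP and at 3.35-fold under IgG. For H2-DMa the ratio was 1.20-fold under anti-ACBP and 2.56-fold under IgG, and for H2-DMb1 it was 1.15-fold under anti-ACBP and 3.97-fold under IgG. Ciita kept the highest ratio under anti-ACBP, 1.65-fold, and had 3.76-fold under IgG. In order of level each gene was therefore highest in MCD IgG livers and next in MCD anti-ACBP livers. The order of the chow groups is not resolved by the test on chow, and by CPM 4 of the 8 genes were higher in chow anti-ACBP livers. Whether MCD anti-ACBP livers differ from chow livers was not tested.

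**Figure D3:**
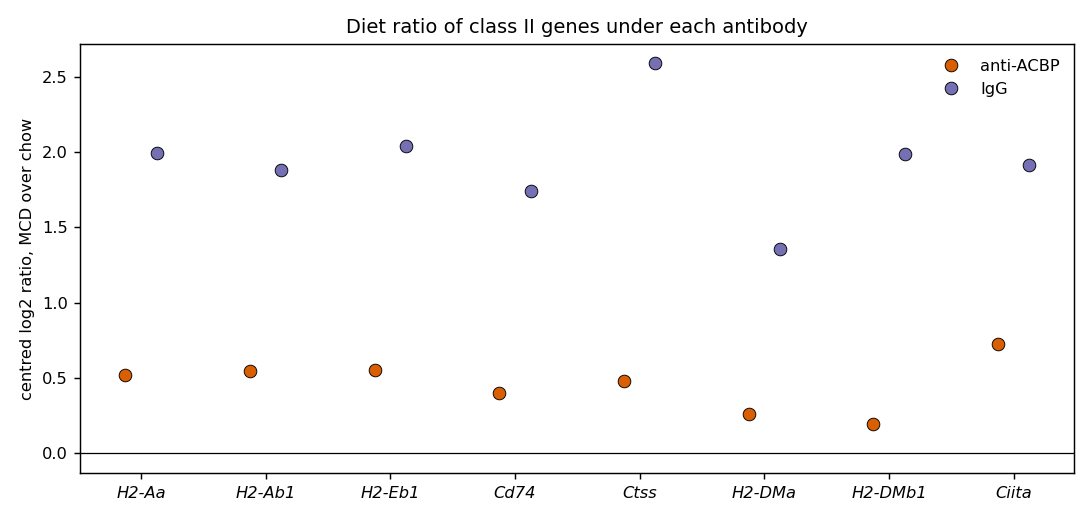
Centred log2 ratio of group mean CPM, MCD over chow, for each class II gene under anti-ACBP and under IgG (group means only, no error bars and no test). Under anti-ACBP the genes lie between 0.20 and 0.73, and under IgG between 1.35 and 2.59.

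Ratios within a group cancel differences in scale, and gene length drops out when the same pair is compared between groups. H2-Aa over H2-Ab1, the partners of I-A, was 1.06 in MCD anti-ACBP livers, 1.08 in MCD IgG livers, 1.08 in chow anti-ACBP livers and 0.997 in chow IgG livers. The partners kept nearly the same proportion in all 4 groups. H2-Ab1 over Cd74 was 0.388 in MCD anti-ACBP livers, 0.384 in MCD IgG livers, 0.350 in chow anti-ACBP livers and 0.349 in chow IgG livers. Ctss over Cd74 was 0.478 in MCD anti-ACBP livers, 0.845 in MCD IgG livers, 0.450 in chow anti-ACBP livers and 0.471 in chow IgG livers. For Ctss, MCD IgG livers stood apart from the other 3 groups. H2-DMa over Cd74 went the other way, with 0.0529 in MCD anti-ACBP livers, 0.0387 in MCD IgG livers, 0.0581 in chow anti-ACBP livers and 0.0507 in chow IgG livers. These ratios have no error of their own and were not tested.

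**Figure D4:**
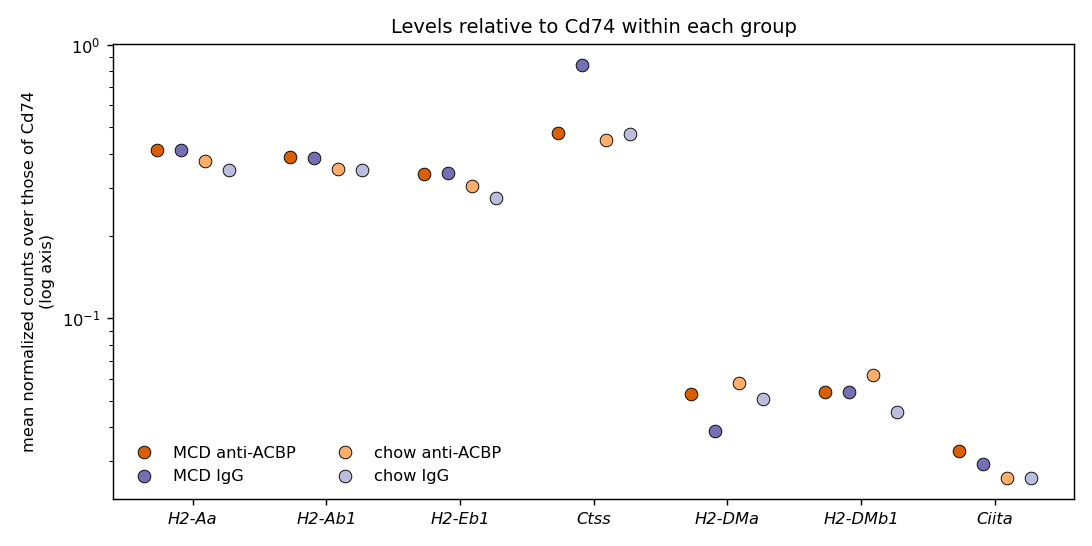
Mean normalized counts of each class II gene over those of Cd74 in the same group, on a log axis, for the 4 groups. H2-Aa lies between 0.348 and 0.413, H2-Ab1 between 0.349 and 0.388, and H2-Eb1 between 0.276 and 0.339. Each of these chains is higher in both MCD groups than in both chow groups. Ctss stands at 0.845 in MCD IgG livers and at 0.450 to 0.478 in the other 3.

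Per kilobase of the first GENCODE transcript, Cd74 was the most abundant member in all 4 groups, with 1689 normalized counts per kb in MCD anti-ACBP livers and 4740 in MCD IgG livers. Ctss came next in MCD IgG livers at 3620 per kb, and had 729 in MCD anti-ACBP livers, just under H2-Aa at 753. The DM genes and Ciita were far lower: H2-DMb1 had 79.3 per kb in MCD anti-ACBP livers and 222 in MCD IgG livers, and Ciita had 11.3 in MCD anti-ACBP livers and 28.2 in MCD IgG livers. By the length of all annotated exons the chains change places, with H2-Eb1 above H2-Aa. By that length Ctss stood above Cd74 in MCD IgG livers, at 3612 against 3456 per kb, and below it in the other groups. In MCD anti-ACBP livers Ctss was then at 727 per kb, above H2-Aa at 224. The order of the chains, Cd74 and Ctss is therefore not settled.

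The other class II chains were scarcer and less uniform. H2-Eb2, a second I-E beta gene, had 6.75 normalized counts in MCD anti-ACBP livers and 24.90 in MCD IgG livers, with a log2 fold change of -1.88 ± 0.467 (adjusted p 0.000407 in the authors' deposited table). H2-DMb2 had 25.08 in MCD anti-ACBP livers and 43.65 in MCD IgG livers, with a log2 fold change of -0.79 ± 0.267 (adjusted p 0.0133). H2-Oa and H2-Ob encode the DO pair, an inhibitor of DM found mainly in B cells. H2-Oa had 11.32 in MCD anti-ACBP livers and 18.61 in MCD IgG livers, and it was not called (adjusted p 0.219). H2-Ob had 35.97 in MCD anti-ACBP livers and 40.54 in MCD IgG livers, with a log2 fold change of -0.17 ± 0.268 (adjusted p 0.682). On chow H2-Ob was the only class II chain called, higher with anti-ACBP: 36.15 normalized counts in chow anti-ACBP livers, against 13.57 in chow IgG livers, a log2 fold change of 1.40 ± 0.483 (adjusted p 0.0358 in the authors' deposited table). Its difference between diets was -1.57 ± 0.552 (adjusted p 0.0238).

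Together with transcription factors of the class II promoter and genes that turn class II over, these made a list of 14 genes, of which 5 fell and 3 rose on MCD, with a median log2 fold change of -0.21. The NF-Y subunits split: Nfya fell, at -0.59 (adjusted p 1.28e-05), and Nfyb rose, at 0.64 (adjusted p 1.39e-10), in the authors' deposited table. March1, a ubiquitin ligase that removes class II from the surface, fell, at -1.27 (adjusted p 6.15e-06). Rfx5, which binds the X box, had -0.67 (adjusted p 0.00465). On chow 1 of 12 tested genes was higher, H2-Ob, and 1 lower, Rfxank, at -0.65 (adjusted p 0.00146).

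Of 11 endosomal processing genes, 8 fell and 1 rose on MCD, with a median of -0.61. Lgmn, an asparaginyl endopeptidase that starts invariant chain cleavage, had -0.97 in the authors' deposited table (adjusted p 9.52e-14), Ctsb -0.61 (adjusted p 1.03e-12) and Ctsd -0.73 (adjusted p 3.05e-11). Compared with Ctss, these proteases had smaller fold changes. On chow 2 of the 11 fell, Ifi30, a thiol reductase of the endosome, at -0.44 (adjusted p 0.0453), and Ctsl, at -0.43 (adjusted p 0.000901). Of 5 tested costimulation genes, 4 fell on MCD, with a median of -1.03. Icosl had -1.11 (adjusted p 2.53e-13), Cd274, which encodes PD-L1, -1.03 (adjusted p 4.85e-07), and Cd86 -0.93 (adjusted p 1.55e-05). None of the 5 was called on chow by DESeq2, with 1 at an unadjusted p under 0.05.

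Interferon-gamma is the classical inducer of Ciita. Ifng itself had 0.71 normalized counts in MCD anti-ACBP livers and 1.17 in MCD IgG livers, too few to test. Of 8 tested genes of its receptor and signalling, 4 fell on MCD and none rose, with a median of -0.39: Ifngr2 had -0.65 (adjusted p 1.11e-06), Irf8 -0.94 (adjusted p 4.40e-06) and Ifngr1 -0.52 (adjusted p 0.000850) in the authors' deposited table. On chow DESeq2 called 0 of the 8, with 1 at an unadjusted p under 0.05. Class I presentation is used by nearly every cell. Of 16 class I genes 5 fell and 2 rose on MCD, with a median of -0.11. H2-D1 had -0.60 (adjusted p 1.30e-11), H2-Q4 -0.69 (adjusted p 3.71e-09) and Psmb9 -0.55 (adjusted p 8.51e-05). The 2 that rose were H2-Q7, at 0.39 (adjusted p 0.00224), and Pdia3, at 0.33 (adjusted p 0.000323). Reads of the H2-Q family may be split uncertainly among its copies. On chow 7 of these 16 fell and none rose, and 0 of the 8 class II genes were called. The median log2 fold changes on chow were -0.23 for class I and -0.14 for class II. The SEs differed: on chow H2-D1 was called at -0.20 ± 0.053, and Cd74, at -0.20 ± 0.202, was not. The counts of calls therefore do not compare the size of the changes.

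**Figure D5:**
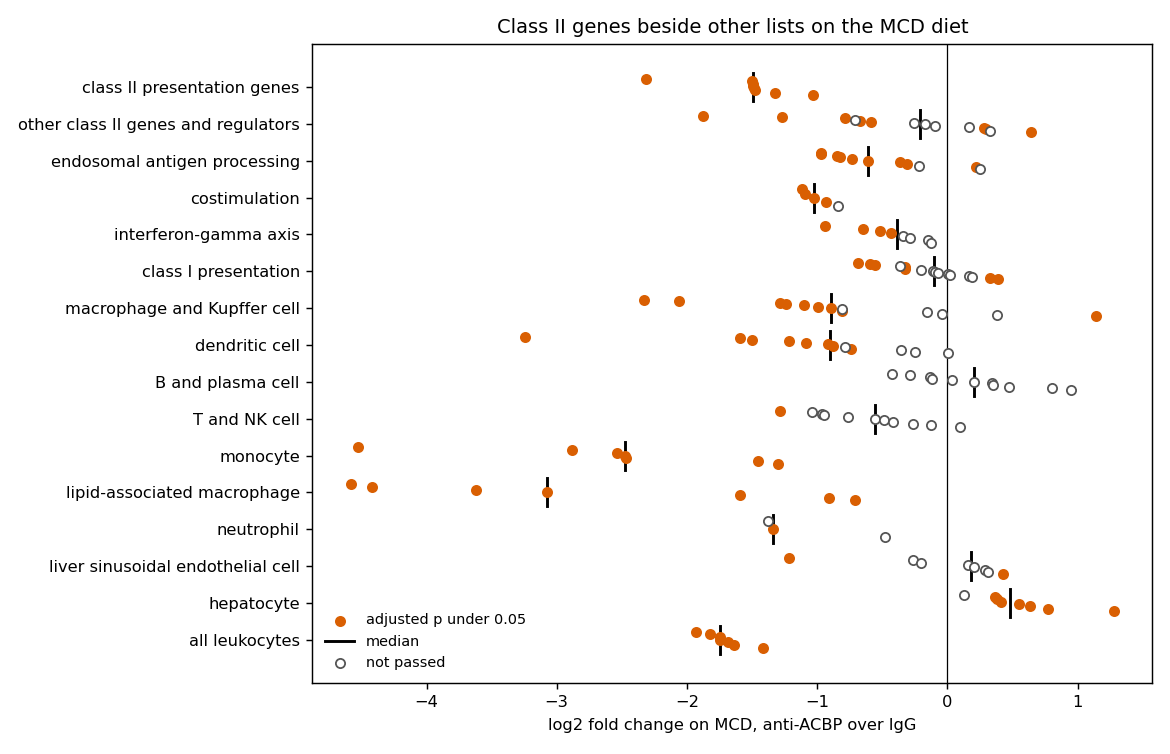
Log2 fold change on the MCD diet, anti-ACBP over IgG, of each tested gene in the class II list and in 15 other lists, with filled points for an adjusted p under 0.05 and a bar at each list's median. The 8 class II genes lie below -1 with a median of -1.49; the leukocyte list has a median of -1.75, and the B and plasma cell list 0.20.

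Markers of leukocytes moved with the class II genes. The summed level of the 8 members was 144.5 CPM in MCD anti-ACBP livers, 519.9 in MCD IgG livers, 95.7 in chow anti-ACBP livers and 97.7 in chow IgG livers. That of 7 leukocyte genes (Ptprc, Cd52, Cd53, Laptm5, Coro1a, Tyrobp and Fcer1g, of which the last pair belongs mainly to myeloid and NK cells) was 50.003 CPM in MCD anti-ACBP livers, 187 in MCD IgG livers, 35.1 in chow anti-ACBP livers and 35.3 in chow IgG livers. All 7 fell on MCD, with a median log2 fold change of -1.75, and none was at 0 in any group. The ratio of both sums was 2.89 in MCD anti-ACBP livers, 2.79 in MCD IgG livers, 2.73 in chow anti-ACBP livers and 2.77 in chow IgG livers, nearly the same proportion of the sums. Without Tyrobp and Fcer1g, left out after the values were seen, it was 3.99 in MCD anti-ACBP livers, 3.95 in MCD IgG livers, 3.81 in chow anti-ACBP livers and 4.01 in chow IgG livers. Over Ptprc alone, which encodes the leukocyte protein CD45, Cd74 stood at 7.79 in MCD anti-ACBP livers, 8.17 in MCD IgG livers, 7.81 in chow anti-ACBP livers and 8.18 in chow IgG livers. Ctss over Ptprc was 3.72 in MCD anti-ACBP livers, 6.91 in MCD IgG livers, 3.52 in chow anti-ACBP livers and 3.85 in chow IgG livers. The part of leukocyte number in the class II result was not tested.

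Among cell types that can carry class II, the lists differed. Of 13 macrophage and Kupffer cell genes 8 fell and 1 rose on MCD, and their summed level was 327 CPM in MCD anti-ACBP livers, 778 in MCD IgG livers, 261 in chow anti-ACBP livers and 274 in chow IgG livers. Lyz2 had -2.33, Cd68 -2.06 and Csf1r -1.29 on MCD in the authors' deposited table. Timd4, a marker of resident Kupffer cells and the 1 that rose, had 1.14 (adjusted p 0.0309), and Clec4f, which defines Kupffer cells, had 0.38 ± 0.398 (adjusted p 0.519). The resident markers of the list did not move as one: Cd5l fell, at -0.81 (adjusted p 0.00199), while Vsig4, at -0.15 (adjusted p 0.729), and Marco, at -0.81 (adjusted p 0.228), were not called. Of 12 dendritic cell genes 8 fell, among them Itgax at -3.25, Flt3 at -1.22 and Siglech at -1.59, and the list summed to 20.3 CPM in MCD anti-ACBP livers, 56.3 in MCD IgG livers, 13.8 in chow anti-ACBP livers and 12.1 in chow IgG livers. Itgax, which macrophages express too, made up 2.30 CPM of that sum in MCD anti-ACBP livers and 24.8 in MCD IgG livers. Without it, a choice made after the values were seen, the list summed to 18.0 CPM in MCD anti-ACBP livers, 31.6 in MCD IgG livers, 13.2 in chow anti-ACBP livers and 11.6 in chow IgG livers. Zbtb46, a transcription factor of classical dendritic cells, had 0.01 ± 0.139 (adjusted p 0.982). The others of the list that DESeq2 did not call on MCD were Clec9a, Cd209a and Itgae. Clec9a had -0.35 ± 0.201 (adjusted p 0.182), Cd209a -0.79 (adjusted p 0.0504) and Itgae -0.25 (adjusted p 0.707).

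The lists of monocyte and lipid-associated macrophage genes had the lowest medians of the 15 lists. All 7 monocyte genes fell on MCD, with a median of -2.48, among them Cx3cr1 at -2.88, Ccr2 at -2.47 and Itgam at -2.54. All 7 lipid-associated macrophage genes fell as well, with a median of -3.07, among them Gpnmb at -4.58, Trem2 at -3.07 and Mmp12 at -4.42. The monocyte list summed to 7.97 CPM in MCD anti-ACBP livers, 42.3 in MCD IgG livers, 5.14 in chow anti-ACBP livers and 5.54 in chow IgG livers. For lipid-associated macrophage genes the sums were 90.5 CPM in MCD anti-ACBP livers, 574 in MCD IgG livers, 72.4 in chow anti-ACBP livers and 91.7 in chow IgG livers. These sums hide unlike genes. Fabp5 had 308.17 normalized counts in MCD anti-ACBP livers, against 791.64 in chow anti-ACBP livers and 1549.48 in chow IgG livers. Gpnmb had 276.38 in MCD anti-ACBP livers, against 4.78 in chow anti-ACBP livers and 5.24 in chow IgG livers. In the same groups Mmp12 had 181.11, 6.83 and 11.14. These diet differences were not tested. Both lists therefore had lower medians than class II, and Ctss lay nearer to them than the chains did.

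Few lymphocyte genes were called. DESeq2 called 0 of 11 B and plasma cell genes on MCD, with 1 at an unadjusted p under 0.05, and their summed level was 7.66 CPM in MCD anti-ACBP livers, 8.15 in MCD IgG livers, 7.54 in chow anti-ACBP livers and 5.96 in chow IgG livers. Of 11 T and NK cell genes 1 was called by DESeq2 on MCD, Gzma, lower at -1.28 (adjusted p 0.0132), and 3 had an unadjusted p under 0.05. Of the 11 fold changes 10 were negative, with a median of -0.55. These genes had 11.26 to 39.92 normalized counts in MCD IgG livers and SEs of 0.288 to 0.567 on MCD, which limits the calls. The list summed to 5.12 CPM in MCD anti-ACBP livers, 8.31 in MCD IgG livers, 3.48 in chow anti-ACBP livers and 3.44 in chow IgG livers. Liver sinusoidal endothelial cells also carry class II, and of 8 of their genes 1 fell, Lyve1, and 1 rose, Kdr. Of 8 hepatocyte genes 7 rose on MCD, among them Serpina1c at 1.28, Fgb at 0.64 and Ttr at 0.78. In the neutrophil list 1 of 3 tested genes fell, S100a8, and Ly6g was at 0 in MCD anti-ACBP livers, the single marker at 0 in any group. On chow DESeq2 called none of the macrophage, dendritic cell, B cell, T and NK cell, monocyte, lipid-associated macrophage, neutrophil or leukocyte genes. At an unadjusted p under 0.05 there were 2 of 13, 0 of 8, 0 of 6, 1 of 4, 1 of 5, 2 of 5, 1 of 3 and 0 of 7 tested genes of these lists in that order. The part of these cell types in the class II result was not tested.

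The genes whose 4 group means ran most like the class II profile were found by distance, over 11846 genes whose CPM reached 1 in all groups. The profile was the median of 7 members, since Ciita was below 1 CPM on chow, and each gene's log2 CPM was centred on its mean over the 4 groups. The 10 nearest were Syk (distance 0.0523), Fxyd5 (0.0677), Gltp (0.0781), Clec12a (0.0880), Tmsb10 (0.0931), Eif4e3 (0.0950), Cd300a (0.116), Arhgap30 (0.118), Rap2b (0.1298) and Iqgap1 (0.131). Syk encodes a kinase of immune receptors, and Clec12a and Cd300a encode receptors of myeloid cells. Among the members themselves H2-Aa lay at 0.0334, H2-Eb1 at 0.0660 and H2-Ab1 at 0.0848 from the median profile. Cd74, at 0.185, H2-DMb1, at 0.273, H2-DMa, at 0.530, and Ctss, at 0.677, lay farther from it than the 10 named genes. The likeness rests on 4 group means and is a description.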

How the data were processed

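Liver mRNA was sequenced in 20 labelled samples, grouped by the regime and treatment that the labels give. The submitters' processing notes name HISAT2 2.2.1, HTSeq 0.13.5, DESeq2 without a version, and build mm39. For each diet the authors deposited 1 table, which the file headers call a DESeq2 table. Their signal columns are normalized counts (reads over size factors), averaged per group, so no value per library was used here and p-values measure the spread between libraries as the authors fitted it. Whether libraries came from separate animals is not stated in the labels. The deposited fold changes are on a log2 scale, with SEs. The deposited p-value and its Benjamini-Hochberg adjustment are rounded to 6 decimals; values from 0.001 up were kept, and smaller ones were recomputed here from fold change and SE over the same genes. The lowest mean with an adjusted p was 2.49 normalized counts on MCD and 12.85 on chow. Size factors ran from 0.838 to 1.08 on MCD and from 0.905 to 1.11 on chow, as the single-read steps show. Depth is the normalized count of each gene, and counting error is part of the SE.

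CPM is a group mean scaled to a column total of 1000000. The difference between diets was the difference of both log2 fold changes over its SE (both SEs combined as a root sum of squares), with a two-sided normal p, adjusted over 14607 genes. It was tested on simulated data drawn with normal errors of the deposited SEs, so that run cannot check the SEs themselves. Diet ratios used a floor of 3 normalized counts. Python 3.11.15, numpy 2.4.6, pandas 2.3.3, scipy 1.17.1 and matplotlib 3.10.9 were used. Promoter windows and the build GRCm38.p6 are RefSeq's, transcript lengths and overlaps are from GENCODE M21 on the same older build, and no coordinate was converted.

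The members and all gene lists were chosen with earlier results of these data known. All 8 members are named. From each other list the text names up to 3 called genes with the largest absolute Wald statistic, the genes needed to define a cell type, and the 10 genes nearest in profile. Beyond that rule, the other class II chains are given in full. Rfx5, Timd4, Cd5l, Vsig4, Marco, Rfxank, Ifi30, Ctsl, Zbtb46, Clec9a, Cd209a, Itgae, Fabp5, H2-Q7, Pdia3 and the overlapping genes were named after their values were seen. Alternatives were another scale, no recomputed p, other sets of genes to adjust over, a stricter threshold, other centring and another floor.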

Additional observations from a re-analysis of the deposited data

Results flagged for a closer look

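All 8 of the 8 class II genes are listed here for the same reason: the effect of anti-ACBP on MCD differed from that on chow by a test of the difference itself. The differences in log2 fold change, MCD minus chow, were -2.05 for Ctss, -1.73 for H2-DMb1, -1.43 for H2-Eb1 and -1.41 for H2-Aa. They were -1.29 for Cd74, -1.28 for H2-Ab1, -1.11 for Ciita and -1.03 for H2-DMa. The sign was the same for all 8, and the adjusted p was highest for Ciita, at 0.0256. On the chow side each value rests on 4 libraries per group, while the labels list 5.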

How the results depend on the processing

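The number of members called on MCD stayed at 8 and on chow at 0 with the deposited p-values as listed, adjusted over every gene with an SE, relative to column totals and at an adjusted p under 0.01. With adjustment over only those genes whose CPM reached 5, the count was 5 on MCD and 5 for the difference between diets, since a gene had to reach it in every group compared, and H2-DMa, H2-DMb1 and Ciita did not. Relative to column totals the chow log2 fold changes of H2-Aa, H2-Eb1 and H2-DMa turned to 0.0535, 0.0718 and 0.13, on a scale that turns the 945 lower and 816 higher calls on chow into 533 lower and 2605 higher. On that scale the differences between diets were -2.37 to -1.35, all 8 called. At an adjusted p under 0.01 the count of differences was 6, without H2-DMa and Ciita. Without centring the 8 diet ratios were 0.33 to 0.85 under anti-ACBP and 1.75 to 2.98 under IgG. Centred on genes whose CPM reached 50, they were 0.24 to 0.77 under anti-ACBP and 1.50 to 2.73 under IgG, and a floor of 10 normalized counts left them as they were. Leaving out replicates was not run, since no values per library were used. No paired analysis was possible because the columns are group means and carry no replicate numbers. Depth limits H2-Eb2 and H2-Oa, which had no adjusted p on chow.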
